A study of Mus musculus with 12 samples.

Results

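The 10 genes described here encode AP-1 and EGR immediate early transcription factors: the FOS family (Fos, Fosb, Fosl1 and Fosl2), the JUN family (Jun, Junb and Jund) and 3 members of the EGR family (Egr1, Egr2 and Egr3). They were chosen by gene symbol from the 78275 gene identifiers of the deposited matrix, and all 10 were among the 15030 genes that passed the low-count filter and were tested. They were also chosen with earlier results on their levels in the 4 groups known. Their fold changes and adjusted p-values are therefore given as a description and are not independent support for any pattern across the family. All 12 libraries came from C2C12, an established mouse myoblast line that fuses into myotubes when serum is reduced. Every culture received an siRNA by lipofection, either a non-targeting control siRNA or one directed against Zfp143, which encodes a zinc finger transcription factor. Cells were collected 24 h after transfection in growth medium with 10% fetal bovine serum (uninduced), or were moved at 24 h to differentiation medium with 1% horse serum and collected on day 5 (induced). The 4 groups of 3 libraries are thus uninduced control, uninduced knockdown, induced control and induced knockdown. The differentiation medium was renewed every 24 h, and no source used here gives the time between the last renewal and collection. The labels do not state whether replicates were separate cultures, and p-values therefore cover only the spread seen between these libraries, which may be technical. In these bulk samples, fewer cells of a type and less RNA per cell cannot be told apart.

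FOS and JUN proteins form AP-1, a leucine zipper dimer that binds DNA: FOS proteins need a JUN partner, whereas JUN proteins can also pair with each other. EGR proteins bind GC-rich DNA through zinc fingers and are held back by the corepressors NAB1 and NAB2. Serum and growth factors induce most of these genes within minutes through the MAP kinase cascade, serum response factor with its ternary complex partners, and CREB. The induced transcripts are unstable and disappear quickly. In muscle cells, JUN and FOS are known to oppose MyoD, and Fosl1 and Fosl2 are the FOS family genes expressed for longer in growing cells.

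Promoter letters of 4 members are shown because these genes are described below with different responses and carry a motif of an immediate early input. Windows of 250 bases before to 50 bases after a transcription start, from RefSeq on GRCm38.p6, were used for 7 of the 10 members, with 1 window each for Fos, Fosb, Fosl2, Jun, Junb and Jund and 5 for Egr2. The deposited matrix was made on another build, GRCm39, and holds no coordinates. Each sequence is written 5′ to 3′ on the gene's strand, with motif letters in capitals. Fos lies on chromosome 12 (chr12:85473790-85473889, plus strand, the 100 bases before the start), and its capitals mark the core of a cyclic AMP response element.
Fos: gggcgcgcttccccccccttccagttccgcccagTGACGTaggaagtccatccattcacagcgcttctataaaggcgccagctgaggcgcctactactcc
Egr2 lies on chromosome 10 (chr10:67537793-67537822, plus strand, 30 bases), and its capitals mark a CArG box, the site bound by serum response factor, followed by the core of a cyclic AMP response element on the other strand.
Egr2: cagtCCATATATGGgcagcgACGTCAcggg
Fosb lies on chromosome 7 (chr7:19310046-19310145, minus strand, the 100 bases before the start), and its capitals mark an EGR site.
Fosb: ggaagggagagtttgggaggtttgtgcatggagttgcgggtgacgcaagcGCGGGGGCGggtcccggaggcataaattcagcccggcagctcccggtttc
Jun lies on chromosome 4 (chr4:95052223-95052322, minus strand, the 100 bases before the start), and its capitals mark the Jun/ATF-type AP-1 site and a MEF2 box.
Jun: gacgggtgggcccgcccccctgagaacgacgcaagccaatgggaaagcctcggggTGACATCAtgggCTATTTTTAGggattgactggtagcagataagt

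These motifs were searched on both strands of all 32851 windows in the table. TGACGT, the cyclic AMP response element core, was in 7.51% of windows, and of the 7 members with a window Fos (1 of 1 window) and Egr2 (3 of 5 windows) held it. The CArG box was in 1.63% of windows and, among the members, in 4 of the 5 Egr2 windows. The 3 Egr2 windows with the response element core overlap one another, and they share the same core and the same CArG box. The Egr2 window chr10:67537316-67537615 does not overlap them, so its CArG box is a separate site. GCGNGGGCG, the EGR site, was in 5.55% of windows and in those of Fosb and Fosl2 (from base -79 to base -71 relative to the Fosl2 start). TGACATCA was in 3.62% of windows and the MEF2 box in 3.19%, and the Jun window held both. TGANTCA, the common AP-1 site (7.81% of windows), and ACTACAA, the core of the ZNF143 site (3.24%), were not among the letters of the member windows. No 2 of these matches overlapped in a member window, and a match of letters does not show binding.

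Library totals were between 17895549 and 19068323 estimated counts, except 13520906 in induced knockdown replicate 1. That library and uninduced control replicate 3 stand apart from the rest of their groups. Mitochondrial transcripts took 6.02% of the counts in uninduced control replicate 3 and 1.95% in induced knockdown replicate 1, against 2.63% to 3.95% in the other 10. In induced knockdown replicate 1, the deposited average effective length of several members was also longer than in the other libraries, at 2.03 times for Jund, 1.59 times for Junb and 1.29 times for Jun, with a median of 0.969 over all tested genes. Calls of single members that change when both libraries are left out are given with the value without them.

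Zfp143, the siRNA target, was at 23.2, 27.8 and 39.8 CPM (counts scaled to library size with TMM factors) in uninduced control and at 12.2, 11.9 and 10.1 in uninduced knockdown, so these groups did not overlap. It was at 19.7, 19.3 and 19.3 CPM in induced control and at 14.7, 16.8 and 19.7 in induced knockdown, where the groups overlapped. On the log2 scale Zfp143 was lower by siRNA in uninduced cells, with a log2 fold change of -1.41 (SE 0.18, edgeR adjusted p = 6.12e-05) or 37.7% of control. In induced cells the log2 fold change was -0.18 (SE 0.18, adjusted p = 0.646), or 88% of control. The target's RNA thus does not check the label of the libraries labelled induced knockdown, and the siRNA differences given for induced cells, and their directions, rest on that label alone. A knockdown that had faded by collection and a wrong label cannot be told apart. The group is called induced knockdown here by its label.

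The summed level of 9 myoblast and myotube genes was higher in every induced library than in any uninduced one, at 355 to 403 CPM in uninduced control, 381 to 448 in uninduced knockdown, 7219 to 9016 in induced control and 2876 to 3768 in induced knockdown. Des was the largest part of that sum in uninduced cells (304 CPM in control) and Acta1 in induced cells (4206 CPM in control and 1435 in knockdown), with Myh3 next in induced control (1578 CPM). Myf5, a myoblast factor, went the other way with control siRNA, with means of 56.8 CPM in uninduced control, 16.9 in uninduced knockdown, 23.9 in induced control and 17.0 in induced knockdown. Pax7, a satellite cell marker in that list, had 10 estimated counts in all libraries together. The summed level of 5 fibroblast markers was 61.7 to 71.9, 95.1 to 104, 1364 to 1523 and 876 to 1049 CPM in the same order, with Thy1 at 1 count in all. The 4 smooth muscle markers, of which Cnn1 and Myh11 were not tested, summed to 9.0 to 13.5, 35.4 to 44.2, 2192 to 2763 and 1426 to 1502 CPM. The 4 adipocyte markers stayed under 0.735 CPM in every library. The 5 macrophage and leukocyte markers summed to 17.0 to 35.8 CPM with Adgre1 at 0, and the 4 endothelial markers to 1.95 to 5.32 CPM. Marker sums thus moved with induction and with the siRNA, and their part in the results below was not tested.

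Zfp143 siRNA was followed by higher RNA of most members in uninduced cells and by lower RNA of several of the same genes in induced cells. In uninduced cells 7 of the 10 members were called higher at an edgeR adjusted p under 0.05, and the other 3 were not called. Over the alternative settings that count ran from 5, without uninduced knockdown replicate 1 or replicate 3, to 8, as with the DESeq2 test. Among all tested genes, 15.4% were called higher and 17.1% lower in that comparison. In induced cells Fosl1 was called higher and 4 members lower (Fos, Fosb, Egr2 and Egr3), where 3.73% of all tested genes were called higher and 5.77% lower. The median log2 fold change of the 10 members was 0.58 in uninduced and -0.47 in induced cells, and over all tested genes it was -0.04 and -0.03. With both libraries that stand apart left out, the calls in induced cells came to 1 higher and 8 lower, and with the deposited transcript lengths as an offset they also came to 1 higher and 8 lower. With library size as the only scaling, 1 member was called higher and 3 lower, and all genes called turned from 560 higher and 867 lower to 681 higher and 631 lower.

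Over 5 days of differentiation with control siRNA, 7 members rose, Fosl1 fell, and Fosl2 and Jund were not called, where 33.2% of all tested genes were called higher and 30.9% lower. With Zfp143 siRNA, 4 members were called higher over the same days and 3 lower, where the shares of all tested genes were 36.0% and 30.1%. Without induced knockdown replicate 2 or without replicate 3 of that group, 3 members were called higher and 1 lower. With both libraries that stand apart left out, 7 members were higher and 2 lower with control siRNA, and 4 higher and 4 lower with Zfp143 siRNA. With library size as the only scaling 5 members were higher and 1 lower with Zfp143 siRNA, and all genes called went from 5406 higher and 4526 lower to 6597 and 3371. With control siRNA that scaling kept 7 members higher and 1 lower, while all genes called went from 4992 higher and 4644 lower to 5715 and 3652. The interaction, which is the siRNA effect in induced cells minus that in uninduced cells, was called below 0 for 7 members, and the other 3 were not called. Of all tested genes 10.6% had an interaction called above 0 and 11.8% below 0. With both libraries that stand apart left out, 9 members were called below 0, and of all genes 2769 were called above 0 and 2986 below. Over the alternative settings the count of members ran from 5 to 9. The uninduced and induced groups also differ in serum, in time since transfection and in how much Zfp143 RNA was lowered. The interaction cannot tell these apart from cell state. The members' median log2 fold change was 1.42 with control siRNA and 0.33 with Zfp143 siRNA, and their median interaction was -0.87, beside medians over all tested genes of 0.03, 0.10 and 0.02.

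**Figure D1:**
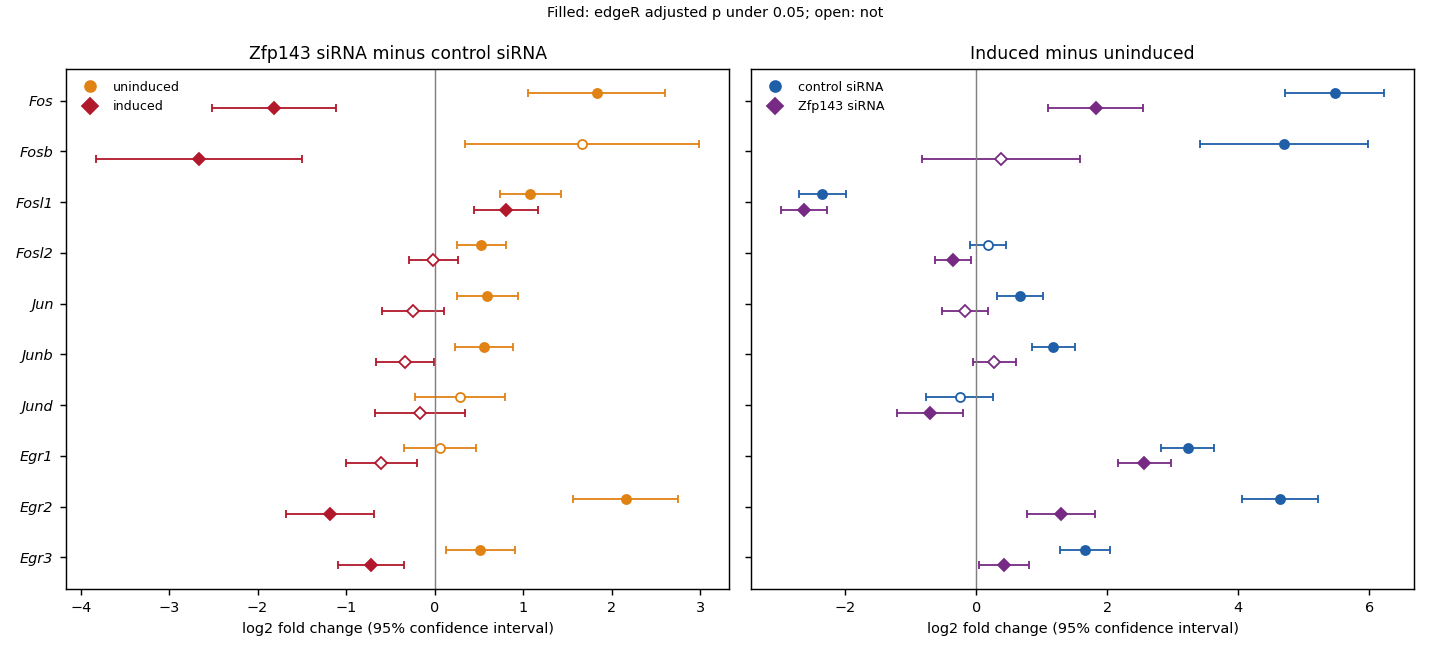
Log2 fold changes of the 10 members with 95% confidence intervals from the edgeR fit, for Zfp143 siRNA minus control siRNA in uninduced and induced cells (left) and for induced minus uninduced cells with either siRNA (right). Filled symbols passed an adjusted p of 0.05. Fos, Egr2 and Egr3 lie to the right of 0 in uninduced cells and to the left of 0 in induced cells, and Fosl1 lies to the right of 0 in both.

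Fos encodes c-FOS, the best known immediate early partner of JUN. Its level was 12.7, 6.37 and 7.75 CPM in uninduced control and 31.6, 30.9 and 33.2 CPM in uninduced knockdown. In induced control it was 509, 301 and 381 CPM, and in induced knockdown 48.4, 142 and 147 CPM. No 2 of the 4 groups overlapped, and the order ran from uninduced control through uninduced knockdown and induced knockdown to induced control. The siRNA difference was 3.56-fold higher in uninduced cells (log2 fold change 1.83, SE 0.36, edgeR adjusted p = 0.00178) and 3.52-fold lower in induced cells (-1.82, SE 0.33, adjusted p = 0.00262). Fos rose 44.3-fold over differentiation with control siRNA (5.47, SE 0.35, adjusted p = 2.92e-08) and 3.54-fold with Zfp143 siRNA (1.82, SE 0.34, adjusted p = 0.000336). The lowest library of induced knockdown was the shallow replicate 1, and leaving out any one library kept every Fos call. The call in induced cells was lost when only its 6 libraries were fitted (adjusted p = 0.0601) and when no low-count filter was used (adjusted p = 0.0638).

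Fosb encodes FOSB, a c-FOS relative whose short splice form lacks the activation domain. By TPM, a scale per transcript length, it was the lowest FOS family RNA in uninduced control (mean 2.03 TPM). Its level there was 9.29, 3.35 and 2.76 CPM. Uninduced knockdown had 15.6, 14.9 and 19.1 CPM, induced control 190, 92.2 and 124 CPM, and induced knockdown 6.31, 29.8 and 27.6 CPM. The 2 uninduced groups did not overlap, nor did the 2 induced groups, but induced knockdown overlapped both uninduced groups. The siRNA difference in uninduced cells was 3.18-fold and narrowly missed the threshold (log2 fold change 1.67, SE 0.59, edgeR adjusted p = 0.0548). It passed without uninduced control replicate 1, the highest of its group (2.43, adjusted p = 0.0242), without induced control replicate 1 (1.67, adjusted p = 0.0480) and without induced knockdown replicate 1 (1.66, adjusted p = 0.00447). In induced cells Fosb was 6.32-fold lower with Zfp143 siRNA (-2.66, SE 0.52, adjusted p = 0.0112), a call lost when only its 6 libraries were fitted (adjusted p = 0.0697) and when no low-count filter was used (adjusted p = 0.0574). Fosb rose 26-fold over differentiation with control siRNA (4.70, SE 0.58, adjusted p = 6.55e-05), and without uninduced control replicate 1 that value was 5.45 on the log2 scale. With Zfp143 siRNA the change over differentiation was 0.37 (SE 0.54, adjusted p = 0.563), with a 95% interval from -0.83 to 1.58.

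Fosl1 encodes FRA-1, a FOS protein without the activation domain of c-FOS that is abundant in growing and migrating cells. Its level was 174, 147 and 126 CPM in uninduced control, 318, 290 and 338 in uninduced knockdown, 32.2, 28.6 and 27.0 in induced control, and 65.6, 42.4 and 45.7 in induced knockdown. No 2 groups overlapped, and knockdown was above control in both states. Fosl1 was 2.12-fold higher with Zfp143 siRNA in uninduced cells (log2 fold change 1.08, SE 0.16, edgeR adjusted p = 0.00021) and 1.75-fold higher in induced cells (0.81, SE 0.17, adjusted p = 0.00529). It fell 5.09-fold over differentiation with control siRNA (-2.35, SE 0.17, adjusted p = 1.56e-08) and 6.17-fold with Zfp143 siRNA (-2.62, SE 0.16, adjusted p = 5.48e-09). The interaction was -0.28 (SE 0.23, adjusted p = 0.434, 95% interval -0.77 to 0.22), and -0.38 (adjusted p = 0.0473) with both libraries that stand apart left out. Of the 10 members, Fosl1 alone was called higher with Zfp143 siRNA in both states and alone was called lower over differentiation with both siRNAs, and these 4 calls held under each of the 22 alternative settings.

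Fosl2 encodes FRA-2, the other FOS protein without that activation domain. Its levels were 204, 192 and 159 CPM in uninduced control, 253, 285 and 263 in uninduced knockdown, 205, 194 and 231 in induced control, and 228, 189 and 207 in induced knockdown. Uninduced knockdown was above every other library, and the other 3 groups overlapped one another. Fosl2 was 1.44-fold higher with Zfp143 siRNA in uninduced cells (log2 fold change 0.53, SE 0.13, edgeR adjusted p = 0.00582), and in induced cells the difference was -0.01 (SE 0.13, adjusted p = 0.973, 95% interval -0.29 to 0.26). Over differentiation it changed by 0.18 with control siRNA (SE 0.13, adjusted p = 0.227) and fell by 0.36 on the log2 scale with Zfp143 siRNA (SE 0.13, adjusted p = 0.0221). The last call was lost without uninduced knockdown replicate 2 (adjusted p = 0.0775), induced knockdown replicate 2 (adjusted p = 0.0965) or induced knockdown replicate 3 (adjusted p = 0.0530), and with library size as the only scaling (-0.11, adjusted p = 0.560). That scaling moved the median of all genes over differentiation from 0.03 to 0.21 with control siRNA and from 0.10 to 0.35 with Zfp143 siRNA.

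**Figure D2:**
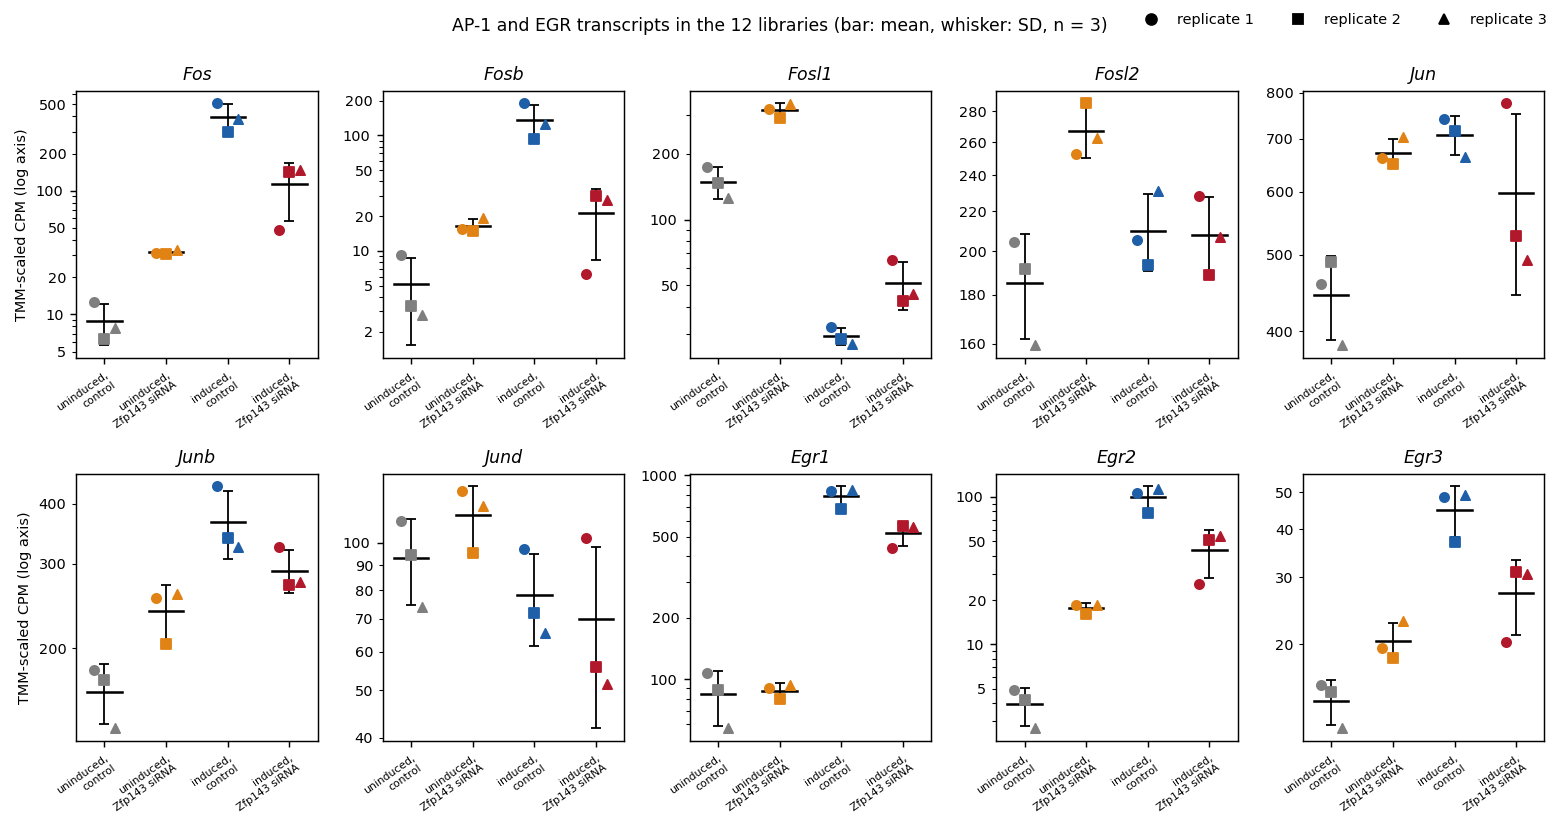
TMM-scaled CPM of each member in the 12 libraries on a log axis, by group, with the mean as a bar and the SD as a whisker (n = 3 libraries per group). Fos, Fosb, Egr1, Egr2 and Egr3 are highest in induced control, Fosl1 is lowest there, and the shallow replicate 1 of induced knockdown is the lowest of its group for Fos, Fosb, Egr1, Egr2 and Egr3.

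The leading FOS family RNA changed from Fosl1 in uninduced control to Fos in induced control. On the TPM scale, which is per transcript length and so allows levels of different genes to be compared, the family summed to 168 ± 56.7 TPM in uninduced control, 319 ± 18.7 in uninduced knockdown, 543 ± 113 in induced control and 243 ± 55.7 in induced knockdown (SD, n = 3). Without the libraries that stand apart it summed to 199 ± 24 TPM in uninduced control and 274 ± 20.4 TPM in induced knockdown (SD, n = 2 each). In uninduced control, Fosl1 made up 70.3% of that sum (70.1% to 70.5%) and Fos 3.84% (2.88% to 4.66%). In induced control Fos was at 70.3% (69.1% to 72.1%) and Fosl1 at 5.75% (4.99% to 6.83%). In induced knockdown Fos was at 44.9% (26.4% to 54.2%), Fosl2 at 27.7% (22% to 38.5%) and Fosl1 at 23.0% (17.8% to 33.2%). Replicate 1 of that group, which stands apart, gave the lowest Fos share and the highest Fosl2 and Fosl1 shares. Fosl2 led the family there, at 69.8 TPM beside 47.9 TPM for Fos. Fos led in replicates 2 and 3, at 141 and 156 TPM of sums of 260 and 289 TPM. In uninduced knockdown, Fosl1 held 73.9% (72.0% to 75.1%). The TPM values were used as deposited, without the TMM factors. Those factors ran from 0.799 in uninduced control replicate 3 to 1.12 in induced knockdown replicate 3. Differences of summed TPM between groups therefore need not equal those in CPM. The shares and sums are descriptions and were not tested.

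**Figure D3:**
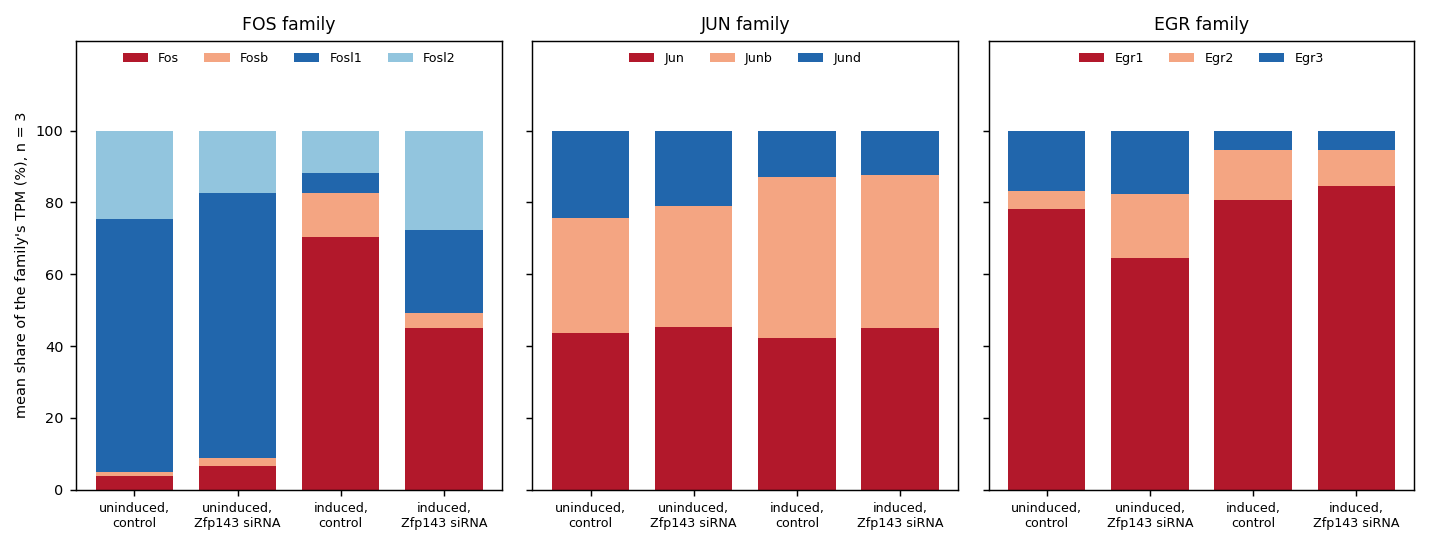
Mean share of each member in the summed TPM of its family (percent, n = 3 libraries per group; no error bars are drawn). Fosl1 makes up 70.3% of the FOS family in uninduced control, and Fos makes up 70.3% of it in induced control, while Jun and Egr1 hold a large share of their families in all 4 groups.

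Jun encodes c-JUN, the main DNA-binding partner in AP-1. Its levels were 458, 489 and 384 CPM in uninduced control, 662, 650 and 704 in uninduced knockdown, 742, 717 and 664 in induced control, and 776, 528 and 492 in induced knockdown. Uninduced control was below every other library, and induced knockdown spanned the ranges of uninduced knockdown and induced control, with its replicate 1 the highest of all. Jun was 1.51-fold higher with Zfp143 siRNA in uninduced cells (log2 fold change 0.60, SE 0.16, edgeR adjusted p = 0.0122) and rose 1.59-fold over differentiation with control siRNA (0.67, SE 0.16, adjusted p = 0.00226). In induced cells the siRNA difference was -0.24 (SE 0.16, adjusted p = 0.469), and without induced knockdown replicate 1 it was -0.47 (adjusted p = 0.0456), as it was with both libraries that stand apart left out (-0.47, adjusted p = 0.000551). The change over differentiation with Zfp143 siRNA was -0.17 (SE 0.16, adjusted p = 0.383), and without that library it was -0.40 (adjusted p = 0.0204), or -0.40 (adjusted p = 0.000442) with both left out. With library size as the only scaling its sign turned, to 0.084 (adjusted p = 0.696).

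Junb encodes JUNB, a JUN protein that can restrain c-JUN activity. The libraries read 180, 171 and 136 CPM in uninduced control, 255, 204 and 260 in uninduced knockdown, 435, 339 and 325 in induced control, and 325, 271 and 275 in induced knockdown. No 2 groups overlapped, although the highest induced knockdown library lay just under the lowest induced control library. Junb was 1.47-fold higher with Zfp143 siRNA in uninduced cells (log2 fold change 0.56, SE 0.15, edgeR adjusted p = 0.0122), a call lost without uninduced knockdown replicate 1 (adjusted p = 0.0537) or replicate 3 (adjusted p = 0.0604). In induced cells the difference was -0.34 (SE 0.15, adjusted p = 0.228), and it passed with both libraries that stand apart left out (-0.42, adjusted p = 0.0247). Over differentiation Junb rose 2.26-fold with control siRNA (1.18, SE 0.15, adjusted p = 9.55e-06), and with Zfp143 siRNA it changed by 0.28 (SE 0.15, adjusted p = 0.123), which passed with library size as the only scaling (0.53, adjusted p = 0.0155).

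Jund encodes JUND, the JUN protein that is usually present before any stimulus. It was at 111, 94.5 and 74.2 CPM in uninduced control, 127, 95.4 and 119 in uninduced knockdown, 97.1, 72.0 and 65.5 in induced control, and 102, 55.9 and 51.6 in induced knockdown. All 4 groups overlapped, and of the 5 comparisons 1 was called. With Zfp143 siRNA Jund fell by 0.70 on the log2 scale over differentiation (SE 0.24, edgeR adjusted p = 0.0171), although the ranges overlapped. That call was lost without uninduced knockdown replicate 1 (adjusted p = 0.0621), induced knockdown replicate 2 (adjusted p = 0.0764) or induced knockdown replicate 3 (adjusted p = 0.0818), and with library size as the only scaling (-0.45, adjusted p = 0.122). The siRNA difference was 0.29 (SE 0.24, adjusted p = 0.377) in uninduced cells and -0.16 (SE 0.24, adjusted p = 0.783) in induced cells, and neither was called. With the transcript length offset both passed, at 0.39 (adjusted p = 0.0320) and -0.58 (adjusted p = 0.00903), and so did the interaction, at -0.96 (adjusted p = 0.00158). With both libraries that stand apart left out the induced difference was -0.54 (adjusted p = 0.0385). The effective length of Jund was 2.03 times as long in induced knockdown replicate 1 as in the other libraries, and that library held the highest Jund level of its group. Over differentiation with control siRNA Jund changed by -0.25 (SE 0.24, adjusted p = 0.363), and with both libraries that stand apart left out by -0.40 (adjusted p = 0.0391).

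The JUN genes together were at 501 ± 144 TPM in uninduced control, 688 ± 35.4 in uninduced knockdown, 1106 ± 76.2 in induced control and 850 ± 12.1 in induced knockdown (SD, n = 3), and without the libraries that stand apart at 584 ± 2.53 TPM in uninduced control and 851 ± 16.9 TPM in induced knockdown (SD, n = 2 each). The share of Jun had group means from 42.3% to 45.3%, and the share of Junb was 32.1% in uninduced control and 44.6% in induced control. Within induced knockdown the share of Jun ran from 41.6% to 51.8%, with the highest value in replicate 1. Jund held 24.3% in uninduced control and 13.1% in induced control. These shares were not tested either. From uninduced to induced control, mean Jund went from 121 to 145 TPM but from 93.2 to 78.2 CPM. The summed TPM thus does not stand for a change in CPM.

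Egr1 encodes EGR1, the EGR factor most used as a sign of recent growth factor signalling. Its levels were 107, 88.3 and 57.3 CPM in uninduced control and 90.3, 79.5 and 94.1 in uninduced knockdown, which overlapped. It was at 841, 680 and 846 CPM in induced control and 440, 562 and 559 in induced knockdown, which did not overlap. Egr1 rose 9.37-fold over differentiation with control siRNA (log2 fold change 3.23, SE 0.19, edgeR adjusted p = 3.02e-09) and 5.91-fold with Zfp143 siRNA (2.56, SE 0.19, adjusted p = 3.62e-08). The siRNA difference in uninduced cells was 0.06 (SE 0.19, adjusted p = 0.836, 95% interval -0.34 to 0.47). In induced cells it was -0.60 (SE 0.19, adjusted p = 0.0626), just short of the threshold, and it passed without uninduced control replicate 1 (adjusted p = 0.0344) or uninduced control replicate 3 (adjusted p = 0.00468). With both libraries that stand apart left out it was -0.49 (adjusted p = 0.00344). The interaction of -0.66 (SE 0.27, adjusted p = 0.0909) was not called, although it passed without uninduced control replicate 1 (-0.87, adjusted p = 0.0249).

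Egr2 encodes EGR2, also called KROX20, a zinc finger factor first known from hindbrain and Schwann cells. Its level was 4.89, 4.23 and 2.69 CPM in uninduced control, 18.6, 16.2 and 18.5 in uninduced knockdown, 107, 78.1 and 113 in induced control, and 25.8, 51.1 and 54.1 in induced knockdown. No 2 groups overlapped, and their order was that of Fos. Egr2 was 4.47-fold higher with Zfp143 siRNA in uninduced cells (log2 fold change 2.16, SE 0.28, edgeR adjusted p = 5.23e-05) and 2.27-fold lower in induced cells (-1.18, SE 0.24, adjusted p = 0.00408). It rose 25.0-fold over differentiation with control siRNA (4.64, SE 0.27, adjusted p = 2.17e-09) and 2.46-fold with Zfp143 siRNA (1.30, SE 0.24, adjusted p = 0.000288). The Egr2 calls in all 5 comparisons held under every alternative setting run. Of the 7 members with a promoter window, Egr2 alone held both a CArG box and a cyclic AMP response element core inside the windows. Bases further than 250 before a start were not searched, so sites there would be missed in any member. It was searched in 5 windows and the others in 1 each. A link of these letters to the levels was not tested.

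Egr3 encodes EGR3, an EGR factor that is itself a known target of other EGR proteins and is needed for muscle spindles. Libraries of uninduced control had 15.6, 15 and 12 CPM, and those of uninduced knockdown 19.6, 18.4 and 23.0 CPM. Induced control had 48.6, 37.1 and 49.4 CPM and induced knockdown 20.3, 30.8 and 30.6 CPM. Groups overlapped only between uninduced knockdown and induced knockdown. Egr3 was 1.43-fold higher with Zfp143 siRNA in uninduced cells (log2 fold change 0.52, SE 0.18, edgeR adjusted p = 0.0425). This call was lost without any of uninduced control replicates 2 and 3, uninduced knockdown replicates 1 and 3 and induced control replicates 1 and 3, with adjusted p from 0.0544 to 0.167, and with limma-voom (adjusted p = 0.0583). In induced cells Egr3 was 1.65-fold lower with the siRNA (-0.72, SE 0.18, adjusted p = 0.0156), a call lost without induced control replicate 1 (adjusted p = 0.0754) or 3 (adjusted p = 0.0790). It rose 3.16-fold over differentiation with control siRNA (1.66, SE 0.18, adjusted p = 1.37e-06) and 1.34-fold with Zfp143 siRNA (0.42, SE 0.18, adjusted p = 0.0482), and the latter call was lost in 14 of 22 alternative settings, with adjusted p up to 0.171.

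The 3 EGR genes summed to 38.2 ± 16.3 TPM in uninduced control, 44.6 ± 2.83 in uninduced knockdown, 457 ± 71.7 in induced control and 289 ± 70.0 in induced knockdown (SD, n = 3). Without the libraries that stand apart, the sums were 47.4 ± 4.50 TPM in uninduced control and 329.5 ± 7.94 TPM in induced knockdown (SD, n = 2 each), so the uninduced groups changed order. Egr1 held most of that sum in every group, with mean shares from 64.4% in uninduced knockdown to 84.5% in induced knockdown. The share of Egr2 was 5.20% (4.74% to 5.54%) in uninduced control and 17.8% (17.3% to 18.6%) in uninduced knockdown.

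Ordered by TPM, Jun led in uninduced control at 219 ± 64.9 TPM, followed by Junb at 161 ± 46.0, Jund at 121 ± 35.5 and Fosl1 at 118 ± 39.7 (SD, n = 3). Neighbours among these 4 overlapped in range, as did Fosl2 and Egr1 (41.3 ± 13.3 and 30.01 ± 13.3 TPM), Fos and Egr3 (6.50 ± 3.14 and 6.15 ± 2.14 TPM), and Egr2 and Fosb (both 2.03 TPM), while the steps between these sets did not overlap. In uninduced knockdown, Fosl1 was second at 236 ± 14.4 TPM and overlapped Junb at 231 ± 14.4, behind Jun at 312 ± 26. In that group Egr2 and Egr3 (7.95 and 7.92 TPM) also overlapped, and no other neighbours did. In induced control Junb, Jun, Fos and Egr1 led at 495 ± 59.7, 466 ± 3.91, 383 ± 87.6 and 369 ± 54.8 TPM, with each neighbour overlapping the next, and Jund followed at 145 ± 19.8. Below them, Fosb, Egr2 and Fosl2 overlapped at 67.7, 63.6 and 62.2 TPM, ahead of Fosl1 at 30.5 and Egr3 at 25.0. In induced knockdown Jun (382 ± 49.5) and Junb (363 ± 48.8) overlapped at the top, Egr1 stood apart at 244 ± 55.7, Fos (115 ± 58.7) overlapped Jund (105 ± 7.43), and Fosl2 (64.1) overlapped Fosl1 (52.9). Egr2 (29.4 TPM), Egr3 (16.1 TPM) and Fosb (11.3 TPM) came last, with each neighbour overlapping. These overlaps rest in part on the libraries that stand apart. Without induced knockdown replicate 1, Junb (391 and 392 TPM) lay above Jun (359 and 349 TPM), and no neighbours in that group overlapped. Without uninduced control replicate 3, Jun (243 and 268 TPM) lay above Junb (191 and 184 TPM). Junb then also lay above Jund (149 and 134 TPM), and Fosl2 above Egr1.

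The siRNA comparisons in uninduced and in induced cells share no library. Fos, Egr2 and Egr3 were called higher in the first and lower in the second, which is 42.9% of the 7 members called higher in uninduced cells and 75.0% of the 4 called lower in induced cells. Over the 22 alternative settings 2 to 6 members had both calls. Without any one of uninduced control replicates 2 and 3, uninduced knockdown replicates 1 and 3 and induced control replicate 3 it was 2, Fos and Egr2, and without induced knockdown replicate 1 it was 5, with Fosb and Jun added. With both libraries that stand apart left out it was also 5, with Jun and Junb added to Fos, Egr2 and Egr3. With only the groups of each comparison, or with no low-count filter, it was Egr2 and Egr3. Over all tested genes 235 genes had this pair of calls, 10.2% of the 2311 called higher in uninduced cells and 27.1% of the 867 called lower in induced cells. Fosl1 was the member called higher in both, as were 121 genes in all. The interaction was called below 0 for Fos (-3.65, SE 0.49, edgeR adjusted p = 0.000154), Fosb (-4.33, SE 0.79, adjusted p = 0.00382), Egr2 (-3.34, SE 0.36, adjusted p = 1.94e-05), Egr3 (-1.24, SE 0.25, adjusted p = 0.00307), Junb (-0.90, SE 0.22, adjusted p = 0.00856), Jun (-0.84, SE 0.23, adjusted p = 0.0177) and Fosl2 (-0.54, SE 0.18, adjusted p = 0.0433). Without uninduced control replicate 1 the interaction of Fosb was -5.08. The Jun call was lost without induced knockdown replicate 2 (adjusted p = 0.0508). The Fosl2 call was lost in 11 of 21 alternative settings, 9 of which leave out a single library from any of the 4 groups, with adjusted p up to 0.167. For Jund the interaction was -0.45 (SE 0.34, adjusted p = 0.366), and it passed without induced knockdown replicate 1 (-0.82, adjusted p = 0.0326) and with both libraries that stand apart left out (-0.68, adjusted p = 0.0304).

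Other immediate early genes were read from a list of 28 that holds no member. That list and the related lists below were also chosen with earlier results of these data known. Their counts are a description and not independent support for the members' pattern. In uninduced cells 21 of the 28 rose with Zfp143 siRNA and Myc, a growth regulator, fell (log2 fold change -1.55, SE 0.14, edgeR adjusted p = 2.26e-06). In induced cells 10 of the 28 fell and the other 18 were not called. The list median was 1.34 in uninduced and -0.42 in induced cells, beside -0.04 and -0.03 over all tested genes. Of all tested genes 15.4% were called higher and 17.1% lower in uninduced cells, and 3.73% and 5.77% in induced cells. The same shares stand beside the siRNA counts of the lists below. Both calls together, higher in uninduced and lower in induced cells, were made for 8 of the 28: Btg2, Csrnp1, Dusp1, Klf10, Nr4a1, Nr4a3, Pim1 and Sik1. The smallest adjusted p in uninduced cells was that of Gadd45b, a stress-induced signalling adaptor, at 7.87 ± 0.361 CPM in uninduced control and 62.9 ± 4.65 in uninduced knockdown (3.0, SE 0.12, adjusted p = 4.44e-09). Arc, best known from neurons, was at 3.92 ± 1.33 and 61.3 ± 2.58 CPM in the same groups (3.95, SE 0.18, adjusted p = 7.91e-09). In induced cells Btg2, an antiproliferative gene, was at 104 ± 2.61 CPM with control and 59.2 ± 7.96 with Zfp143 siRNA (-0.81, SE 0.12, adjusted p = 0.000301), and Klf10, a zinc finger repressor, at 43.7 ± 1.48 and 28.1 ± 1.60 CPM (-0.63, SE 0.10, adjusted p = 0.000894). All values here are means ± SD of 3 libraries.

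**Figure D4:**
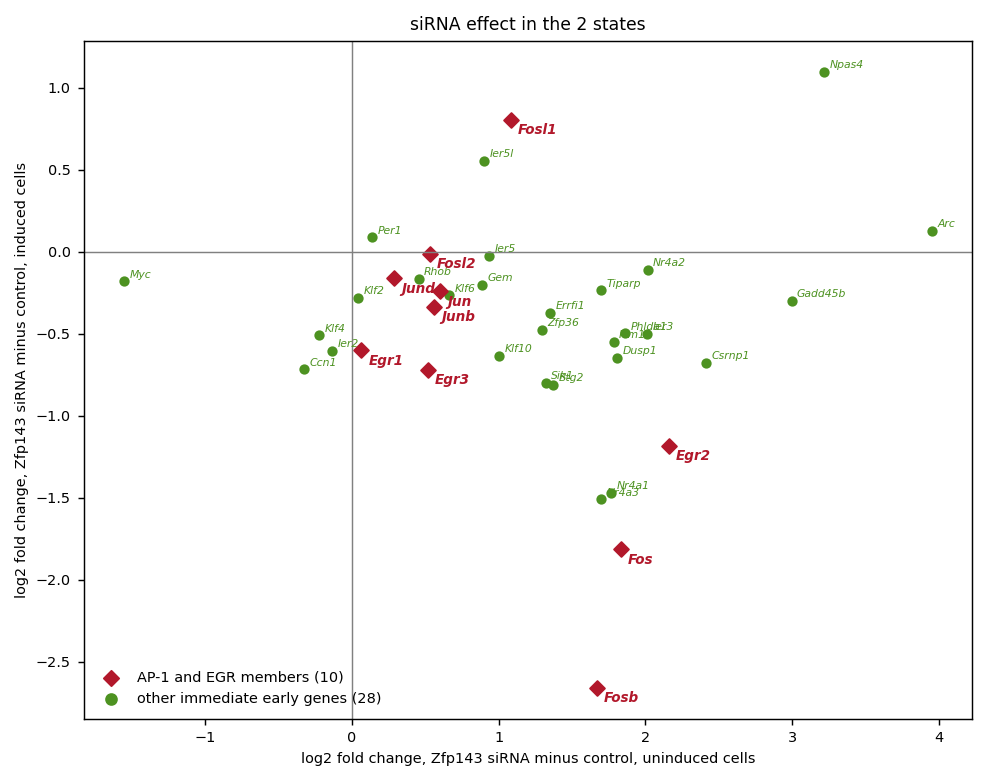
Log2 fold change with Zfp143 siRNA in uninduced cells (horizontal) against that in induced cells (vertical) for the 10 members and the 28 other immediate early genes; each point is 1 gene and the axes use different libraries. Fos, Fosb, Egr2, Nr4a1 and Nr4a3 lie at the lower right, Fosl1 lies above 0 on both axes, and Myc lies far to the left.

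Over differentiation with control siRNA, 18 of these 28 genes rose and 7 fell, and with Zfp143 siRNA 9 rose and 17 fell. Of all tested genes 33.2% were called higher and 30.9% lower with control siRNA, and 36.0% and 30.1% with Zfp143 siRNA. Dusp1, a phosphatase that switches off MAP kinases, rose from 14.5 ± 0.833 to 141 ± 18.7 CPM with control siRNA (log2 fold change 3.28, SE 0.14, edgeR adjusted p = 7.18e-11). Zfp36, which encodes the RNA decay factor tristetraprolin, rose from 16.3 ± 2.07 to 190 ± 37.0 CPM (3.55, SE 0.16, adjusted p = 1.17e-10). With Zfp143 siRNA, Ier3 fell from 447 ± 62.9 to 40.1 ± 4.16 CPM (-3.48, SE 0.16, adjusted p = 2.24e-10) and Csrnp1 from 74.8 ± 4.16 to 10.3 ± 1.47 (-2.86, SE 0.13, adjusted p = 1.83e-10). The interaction was called below 0 for 20 of the 28 and above 0 for 1, where the shares of all tested genes were 11.8% and 10.6%.

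Potential AP-1 partners of the ATF, BATF, JDP and MAF families were tested for 10 of 14 listed genes, and Batf, Batf2 and Batf3 were among those too low to test. In uninduced cells 5 rose with Zfp143 siRNA and 3 fell, and in induced cells 4 fell and the other 6 were not called. Maff and Mafk, small MAF proteins without an activation domain, rose in uninduced cells, Maff from 34.3 ± 3.45 to 261 ± 28.2 CPM (log2 fold change 2.93, SE 0.13, edgeR adjusted p = 7.91e-09) and Mafk from 52.7 ± 5.32 to 114 ± 2.23 (1.11, SE 0.11, adjusted p = 3.53e-06). Atf3, a stress-induced repressor that pairs with JUN proteins, was at 323 ± 21.7 CPM in uninduced control, 194 ± 4.78 in uninduced knockdown, 24.2 ± 1.73 in induced control and 7.61 ± 0.575 in induced knockdown. It fell over differentiation with either siRNA (-3.74, SE 0.11, adjusted p = 1.48e-12, and -4.67, SE 0.12, adjusted p = 1.23e-12) and was lower with Zfp143 siRNA both in uninduced cells (-0.74, SE 0.11, adjusted p = 0.000148) and in induced cells (-1.67, SE 0.12, adjusted p = 8.82e-07). Mafa also fell with the siRNA in induced cells, from 18.2 ± 1.12 to 8.32 ± 1.91 CPM (-1.13, SE 0.17, adjusted p = 0.000513). The list's count in induced cells ranged from 2 to 5 over the alternative settings.

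Among 18 listed AP-1 target genes, 17 were tested, and 14 of them rose with Zfp143 siRNA in uninduced cells while the other 3 were not called. In induced cells 2 rose and 6 fell, and this count of 8 ranged from 4 to 9 over the alternatives. Plau, the urokinase plasminogen activator, showed both directions, from 18.5 ± 1.49 to 110 ± 13.4 CPM in uninduced cells (log2 fold change 2.57, SE 0.12, edgeR adjusted p = 7.91e-09) and from 105 ± 6.32 to 68.9 ± 2.0 in induced cells (-0.61, SE 0.12, adjusted p = 0.00281). Ccnd1, which encodes cyclin D1, rose with the siRNA in induced cells, from 40.9 ± 1.54 to 71.7 ± 10.7 CPM (0.81, SE 0.13, adjusted p = 0.000727). Over differentiation with control siRNA 8 rose and 5 fell, led by Mmp9, a matrix metalloproteinase, at 1.32 ± 0.487 and 78.1 ± 1.60 CPM (5.87, SE 0.24, adjusted p = 1.29e-11), and Plaur, the urokinase receptor, at 84.9 ± 5.71 and 10.9 ± 0.975 (-2.96, SE 0.13, adjusted p = 5.11e-11). With Zfp143 siRNA 5 rose and 11 fell. Of all tested genes 33.2% were called higher and 30.9% lower with control siRNA, and 36.0% and 30.1% with Zfp143 siRNA. The list medians over differentiation were -0.08 with control siRNA and -1.11 with Zfp143 siRNA, beside 0.03 and 0.10 over all tested genes. The interaction was called below 0 for 13 of the 17 and above 0 for 1, where the shares of all tested genes were 11.8% and 10.6%.

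EGR target genes were tested for 11 of 12 listed. In uninduced cells 6 rose with Zfp143 siRNA and 2 fell, a total that ranged from 5 to 10 over the alternatives. Thbs1, a secreted matrix protein, was at 16.7 ± 6.48 CPM in uninduced control, 60.4 ± 9.87 in uninduced knockdown, 1894 ± 62.9 in induced control and 1515 ± 107 in induced knockdown, and it rose with the siRNA in uninduced cells (log2 fold change 1.85, SE 0.23, edgeR adjusted p = 4.45e-05) and over differentiation with control siRNA (6.82, SE 0.23, adjusted p = 2.54e-11). Over differentiation with control siRNA 9 of the 11 rose and 1 fell, and with Zfp143 siRNA 6 rose and 2 fell. Of all tested genes 33.2% were called higher and 30.9% lower with control siRNA, and 36.0% and 30.1% with Zfp143 siRNA. The interaction was called below 0 for 6 of the 11, where the share of all tested genes was 11.8%. Nab2, the corepressor that EGR proteins themselves induce, was at 72.2 ± 7.59 CPM in uninduced control and 144 ± 16.3 in uninduced knockdown (0.99, SE 0.14, adjusted p = 0.000158), and at 121 ± 8.93 in induced control and 139 ± 26.7 in induced knockdown. Nab1 was the other corepressor tested, and Egr4 had 0 counts and Wt1 2 counts in all libraries.

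MAP kinase feedback inhibitors, the DUSP phosphatases and the Sprouty and Spred proteins, were all tested (16 genes, of which Dusp1 is also in the immediate early list). With Zfp143 siRNA 9 rose and 2 fell in uninduced cells, and 7 fell while the other 9 were not called in induced cells, where the count ranged from 3 to 10 over the alternatives. Dusp5, a phosphatase specific for ERK, was at 21.4 ± 2.27 CPM in uninduced control and 99.2 ± 9.17 in uninduced knockdown (log2 fold change 2.21, SE 0.13, edgeR adjusted p = 3.45e-08). Dusp1 rose in uninduced cells, from 14.5 ± 0.833 to 50.7 ± 2.81 CPM (1.81, SE 0.14, adjusted p = 6.74e-07), and fell in induced cells, from 141 ± 18.7 to 89.6 ± 14.6 (-0.65, SE 0.14, adjusted p = 0.00531). Dusp2 fell in induced cells from 24.3 ± 3.55 to 14.0 ± 1.88 CPM (-0.80, SE 0.16, adjusted p = 0.00435). Over differentiation 8 of the 16 rose and 1 fell with control siRNA, 4 rose and 7 fell with Zfp143 siRNA, and the interaction was called below 0 for 10. Over differentiation 33.2% of all tested genes were called higher and 30.9% lower with control siRNA, and 36.0% and 30.1% with Zfp143 siRNA. The interaction was called below 0 for 11.8% of all tested genes.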

How the data were processed

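Polyadenylated RNA of 12 C2C12 libraries was sequenced from a non-strand-specific kit, per the labels' protocols, so reads of a gene and an overlapping antisense gene cannot be told apart. Reads were processed with fastp 1.0.1, STAR 2.7.11b and Salmon on GRCm39, per the submitters' processing notes. No source used here names the annotation release. The authors deposited, per the file headers, an estimated count, a TPM score and an average effective length for each gene and library. The 12 FPKM columns were not used. Estimated counts were rounded to whole numbers for the fits. Of 78810 lines, 535 repeated a gene and were dropped. The headers of induced knockdown replicates 2 and 3 transpose 2 letters and were matched by name.

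Genes were filtered with edgeR 4.0.16 (filterByExpr, minimum count 10, minimum total 15), scaled by TMM and fitted with 4 group means by a robust quasi-likelihood model on all 12 libraries (8 residual degrees of freedom), in R 4.3.3. P-values were adjusted by Benjamini-Hochberg over the 15030 tested genes, and calls were made at 0.05. Levels are CPM scaled by TMM, and levels of different genes are compared by TPM as deposited, without TMM factors. Alternatives were DESeq2 1.42.0, limma 3.58.1 (voom), other scalings, no filter, length offsets, a non-robust fit, a replicate block, fits of only the groups compared, leaving out each library in turn, and leaving out both libraries that stand apart. The fit was tested on simulated counts. No libraries of a group agreed within sampling noise. The members, the 9 related gene lists and the marker lists were chosen with earlier results of these data known. All 10 members are named; of each related list, the genes named are up to 2 called genes with the smallest p per comparison, and of the immediate early list also Myc and the genes called in opposite directions; the nearest genes are named by a fixed measure of likeness. Some genes that this rule would name are not reported here. Myc and the 8 genes with opposite calls were chosen after their values were seen.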

Additional observations from a re-analysis of the deposited data

Results flagged for a closer look

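The effect of Zfp143 siRNA differed between the uninduced and induced groups for 7 members by the interaction term of the edgeR fit over all 12 libraries. These groups differ in cell state, time since transfection, serum and the level of Zfp143 RNA left with the siRNA. The parts of these in the interaction cannot be told apart. With both libraries that stand apart left out, the interaction was called for 9 members. The interaction, on the log2 scale and as the effect in induced cells minus that in uninduced cells, was -3.65 for Fos (1.83 in uninduced and -1.82 in induced cells), -4.33 for Fosb (1.67 and -2.66) and -3.34 for Egr2 (2.16 and -1.18). It was -1.24 for Egr3, -0.90 for Junb, -0.84 for Jun and -0.54 for Fosl2. In 3 of these genes, Fos, Egr2 and Egr3, the effect was called in both states with opposite signs, although Egr3 lost its call in uninduced cells in 10 of 22 alternative settings and in induced cells in 3, and Fos in induced cells in 2. Zfp143 itself had an interaction of 1.22, since its RNA was lower with the siRNA in uninduced cells and overlapped between the induced groups.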

How the results depend on the processing

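Over 22 alternative settings for each comparison of 2 groups and 21 for the interaction, 991 of 1090 recomputed member values kept their direction and their side of the threshold, 55 lost a call, 35 gained one and 9 changed sign. The sign changes were of values near 0: Egr1 with the siRNA in uninduced cells (-0.15 with both libraries that stand apart left out, and -0.14 without uninduced control replicate 3, in a range from -0.14 to 0.28 over single omissions), Fosl2 with the siRNA in induced cells (0.079 with library size as the only scaling, 0.022 with only the groups of the comparison, and 0.061 and 0.053 over single omissions, from -0.083 to 0.061), Jund with the siRNA in induced cells (0.026 without induced control replicate 1 and 0.017 without induced knockdown replicate 3, from -0.54 to 0.026) and Jun over differentiation with Zfp143 siRNA (0.084 with library size only).

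Members called with the siRNA in induced cells numbered 5, against 9 with the transcript length offset and 9 with both libraries that stand apart left out, and 4 to 6 over single omissions. Leaving out both libraries moved all genes called from 1427 to 2525 in induced cells and from 3375 to 5755 for the interaction. Single omissions gave 901 (without induced control replicate 2) to 2014 genes in induced cells. Members called over differentiation with Zfp143 siRNA numbered 7, and from 4 (without induced knockdown replicate 2 or 3) to 8 over single omissions. The cause of these changes was not tested.

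Replicate numbers are shared by the groups, but the labels do not say that they pair the libraries. Deviations correlated at -0.10 to 0.31 for the 18 same-numbered pairs and -0.28 to 0.25 for the other 36. These overlapping ranges cannot show whether libraries were paired. With a replicate block 6 members were called with the siRNA in uninduced cells in place of 7. The block lost the Egr3 call there (adjusted p = 0.0505), the Fosb call in induced cells (adjusted p = 0.0579) and the Egr3 call over differentiation with Zfp143 siRNA (adjusted p = 0.0527). The main limits are 3 libraries per group, Zfp143 RNA that overlapped between the induced groups, and a time since the last medium change that is not given. The spread relative to the mean was widest for Fosb in uninduced control (SD 70.4% of the mean), the member with the lowest counts there together with Egr2.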

Other observations

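Upstream of the members, 22 of 23 listed growth factor receptors and MAP kinase pathway genes were tested. With Zfp143 siRNA in uninduced cells 4 rose and 4 fell, where 15.4% of all tested genes were called higher and 17.1% lower. The list median was -0.05, beside -0.04 over all tested genes. Among those that rose, Map2k1, a MAP kinase kinase, went from 121 ± 8.96 to 193 ± 13.1 CPM (log2 fold change 0.67, SE 0.11, edgeR adjusted p = 0.000476) and Hras, a small GTPase, from 37.6 ± 2.47 to 63.5 ± 5.93 (0.76, SE 0.13, adjusted p = 0.000489; means ± SD of 3 libraries). In induced cells edgeR called 0 of the 22, where 6 had an unadjusted p under 0.05, DESeq2 called 1 and limma-voom 0. Over differentiation 8 of the 22 rose and 7 fell with either siRNA, where the shares of all tested genes called higher and lower were near the same (33.2% and 30.9% with control siRNA, 36% and 30.1% with Zfp143 siRNA). Pdgfra, a receptor of platelet-derived growth factor, rose from 42.7 ± 4.54 to 363 ± 24.3 CPM with control siRNA (3.09, SE 0.13, adjusted p = 5.54e-11), and Egfr from 15.1 ± 2.01 to 68.8 ± 5.18 (2.19, SE 0.12, adjusted p = 1.16e-09). Of 12 tested genes for serum response factor, its ternary complex and MRTF partners and CREB factors, 3 rose and 3 fell with the siRNA in uninduced cells, a total of 6 that ranged from 3 to 9 over the alternatives. Mrtfa, an actin-regulated coactivator of serum response factor, fell from 82.0 ± 13.6 to 40.7 ± 3.12 CPM (-1.01, SE 0.15, adjusted p = 0.000208), and Crem, a CREB relative, rose from 5.98 ± 1.95 to 11.2 ± 1.67 (0.91, SE 0.22, adjusted p = 0.00503). In induced cells edgeR called 0 of the 12, where 2 had an unadjusted p under 0.05, and DESeq2 and limma-voom also called 0. Over differentiation 4 rose and 3 fell with control siRNA, and 6 rose and 2 fell with Zfp143 siRNA. The shares of all tested genes given above stand beside these counts too.

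Of 9 genes for AU-rich element binding proteins and for turnover of JUN or FOS proteins, 3 rose and 2 fell with the siRNA in uninduced cells. Of all tested genes 15.4% were called higher and 17.1% lower there. Zfp36, also in the immediate early list, rose from 16.3 ± 2.07 to 39.9 ± 4.09 CPM (log2 fold change 1.29, SE 0.16, edgeR adjusted p = 3.73e-05) and its relative Zfp36l1 from 32.8 ± 2.99 to 50.4 ± 1.31 (0.62, SE 0.12, adjusted p = 0.00144). In induced cells edgeR called 0 of the 9, where 3 had an unadjusted p under 0.05, DESeq2 called 1 and limma-voom 0. Over differentiation 2 rose and 4 fell with either siRNA. Of all tested genes 33.2% were called higher and 30.9% lower with control siRNA, and 36.0% and 30.1% with Zfp143 siRNA.

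The genes whose levels over the 12 libraries were most like each member were found by the root mean square difference of centred log2 CPM among 10757 candidates, as a description. Nr4a1, an immediate early orphan nuclear receptor, was nearest to Fosb (0.62) and to Egr2 (0.38), and Egr2 was nearest to Fos (0.49), followed by Apoe (0.51). The nearest genes of the others were Fxyd5 for Fosl1 (0.30), Bap1 for Fosl2 (0.091), Tmub1 for Jun (0.11), Crtap for Junb (0.096), Igsf8 for Jund (0.096), Loxl3 for Egr1 (0.21) and Pitpnc1 for Egr3 (0.20). Members that move little have a small difference to many genes: Fosl2 ranged over 0.84 on the log2 scale, and Fos over 6.30. Nr4a1 was at mean levels of 7.66, 26.2, 122 and 44.0 CPM in uninduced control, uninduced knockdown, induced control and induced knockdown, and Apoe at 3.39, 10.47, 151 and 45.9 CPM.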
